A study of Mus musculus with 4 samples.

Results

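The transcription factors of retinal progenitor cells *Pax6*, *Rax*, *Six3*, *Six6*, *Lhx2*, *Sox2*, *Sox9* and *Nr2e1* were followed in RNA-seq counts of E13.5 mouse retinas. They were grouped by their known role in the eye field and in retinal progenitors, and they are 8 of the 24062 genes counted. All 8 were among the 15762 genes with enough reads to be tested. Total RNA of wildtype retinas was compared with that of *Nrf1 f/f;Six3-Cre* retinas, called mutant in the following, with 2 libraries per genotype, all on a mixed C57BL/6 and 129 background. In the mutant, the Cre recombinase is driven by regulatory sequence of *Six3*, itself one of the 8 factors, and removes exon 4 of both floxed copies of *Nrf1*, which encodes nuclear respiratory factor 1, in dividing progenitors of the embryonic retina, starting in its centre. The RNA came from pooled retinas of several littermates, so no library stands for a single embryo. *Nrf1* itself had 9052 and 7789 wildtype reads and 8594 and 8284 mutant reads (log2 fold change -0.03, standard error 0.07), but a count over the whole gene cannot show the loss of 1 exon and so does not check the genotype. The question was whether the factors that give retinal progenitors their identity were still expressed at wildtype levels after loss of *Nrf1*.

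Eye-field factors such as *Pax6*, *Rax*, *Six3* and *Lhx2* are switched on in the anterior neural plate, where they set aside the cells that will form the eye, while *Sox9* joins them later. In retinal progenitors these factors bind to each other's regulatory regions, keep the progenitors dividing and able to make all retinal cell types, and are restricted to subsets of neurons or glia as cells leave the cell cycle. Several of them are needed for an eye to form at all, so their levels are commonly read as a measure of progenitor identity. *Nrf1* is an activator that binds as a dimer to GC-rich sites in promoters, among them those of many genes for mitochondrial proteins.

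In the mutant retina, *Sox9* was the only one of the 8 factors that passed the test, and it fell. A gene counted as changed where it differed by 1.4-fold or more with an adjusted p no higher than 0.2 in edgeR's quasi-likelihood test with Benjamini-Hochberg adjustment over all tested genes. By this rule 1 of the 8 factors (12.5%) was lower in the mutant, beside 8.04% of all tested genes. None of the 8 was higher with edgeR or with DESeq2, beside 12.8% of all tested genes with edgeR, and *Sox9* was also the only one of them with an unadjusted p under 0.05. The log2 fold changes (mutant minus wildtype) of the 8 lay between -0.55 and 0.09, with a median of -0.09, while the median of all tested genes was 0.00073. The median of the 8 was 0.0032 without wildtype replicate 2 and -0.13 without wildtype replicate 1. For 7 of the 8 (87.5%), the 95% interval of the fold change lay within 1.4-fold in both directions, which held for 46.6% of all tested genes. The width of an interval also depends on the number of reads, and the 46.6% was not matched for it. It includes genes just above the filter's minimum count of 10, so the 2 shares cannot show that the factors were unusually stable. For 3 of the 8 (37.5%), the levels of the genotypes did not overlap, beside 62.5% of all tested genes. All 8 rested on at least 1457 reads in every library. A change of the share of cells that express a factor cannot be told apart in whole retinas from a change of its RNA per cell.

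**Figure D1:**
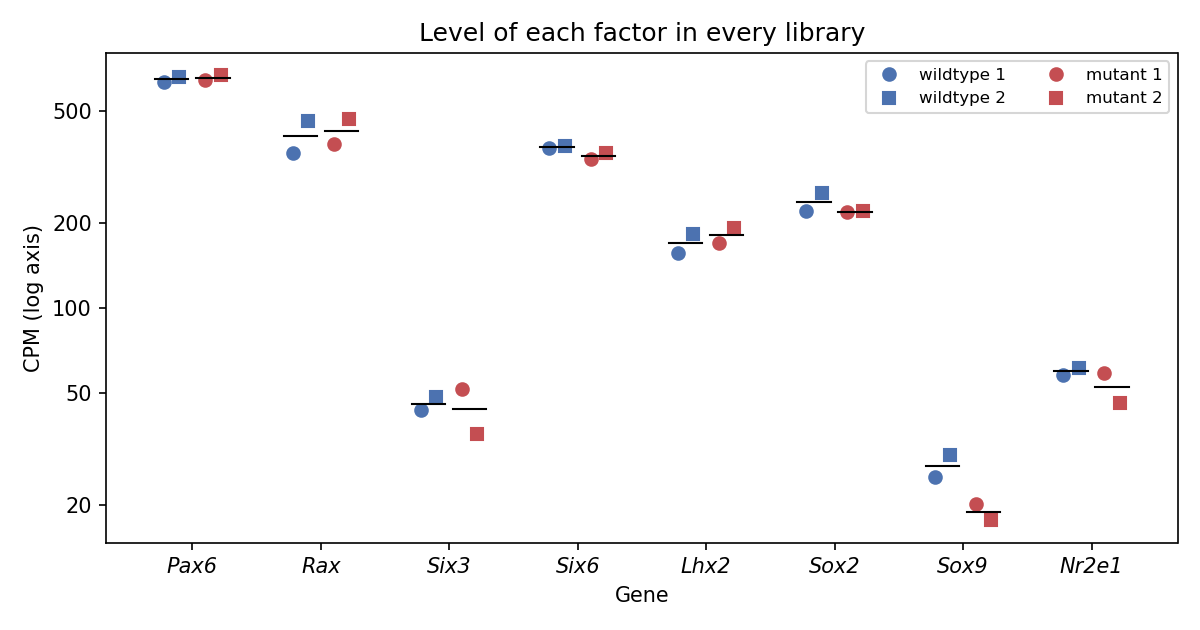
Level of each of the 8 factors in library-scaled counts (CPM, log axis) in the 2 wildtype (blue) and 2 mutant (red) libraries, with circles for replicate 1, squares for replicate 2 and black lines for the mean of each genotype. *Sox9*, at 25.0 and 30.1 CPM in wildtype and 20.1 and 17.6 CPM in mutant, has separate genotypes, while *Rax* and *Lhx2* differ more between replicates than between genotypes.

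The promoters of the factors were searched for the letters that *Nrf1* recognizes, because *Nrf1* is the protein removed in the mutant. RefSeq windows of GRCm38.p6, from 250 bases before to 50 bases after a transcription start, were found for 6 of the 8 factors, 8 windows in all, as *Pax6* and *Lhx2* have 2 starts each. *Rax* and *Sox9* have no entry. No window of a factor held the full site GCGCANGCG on either strand, which was in 6.25% of all 32851 windows. The half-site GCGCA, which is part of the full site, was in 4 of the 8 windows on either strand and in 30.4% of all windows. The 8 windows of the factors held 14 to 34 CpG pairs (C followed by G) each, beside a median of 7 over all windows. The half-site itself holds such a pair, and the 30.4% was not matched for them. The 4 matches are shown because they are the closest to such a site in these promoters, with the half-site, or its reverse complement, in capitals and all on the plus strand. They lie at chr2:38339051-38339080 and chr2:38351101-38351130 for the starts of *Lhx2*, chr3:34649915-34649944 for *Sox2* and chr12:72939902-72939931 for *Six6*, and the capitals begin at positions -218, -195, -68 and 44 relative to the start, counted as 0.
Lhx2 upstream start: tgggaaagagagGCGCAgcaaggaagagct
Lhx2 downstream start: cttgggtagcgtTGCGCgcggctgggcccg
Sox2: ggctgggctcggGCGCAggagccggcgctc
Six6: ggctggcttttcctagctgagcaaGCGCAg
These are matches of letters only, and the libraries hold no measure of binding.

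*Pax6* and *Rax* are homeodomain factors with a paired-type DNA-binding domain. *Pax6*, on chromosome 2 from 105668900 to 105697364 of GRCm38, encodes the factor whose loss leaves mice without eyes and which keeps progenitors multipotent, and it is also kept on in ganglion and amacrine cells and in the lens. It was the most abundant of the 8 in reads, with 55418 and 48960 wildtype reads and 53500 and 55341 mutant reads, and ranked 114 of 15762 genes by mean level. Its level was 646 ± 19.3 CPM in wildtype and 656 ± 17.6 CPM in mutant retinas (SD, n = 2), CPM being counts scaled to library size with TMM factors. The libraries of the genotypes overlapped, and the log2 fold change was 0.02 (95% interval -0.16 to 0.20, adjusted p = 0.876 from edgeR). This was the smallest change of the 8.

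*Rax*, on chromosome 18, is among the earliest genes to mark the eye field and is required for the optic vesicle. It had 30971 and 34024 wildtype reads and 31566 and 38654 mutant reads. In CPM these were 354 and 459 in wildtype and 380 and 467 in mutant retinas, so replicate 1 was the lower one of either genotype and the spread within genotypes exceeded the difference between them. The log2 fold change was 0.06 (95% interval -0.25 to 0.37, adjusted p = 0.801 from edgeR). An antisense transcript, *Raxos1*, which was not analysed here, shares 1604 bases of exon with *Rax* on the opposite strand, 27.4% of the exon bases of *Rax*, and reads of both strands of such a stretch cannot be told apart unless the counting used the strand, which is not given in the sources used here.

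*Six3* and *Six6* are homeodomain proteins of the sine oculis family, which hold back Wnt and cell cycle inhibitor genes in the eye field with the help of Groucho-type corepressors. *Six6* (chromosome 12, 72939892 to 72944899), which has its strongest known effect on the growth of the progenitor pool, had wildtype levels of 369 and 375 CPM and mutant levels of 337 and 355 CPM. Both mutant libraries were below both wildtype libraries. The difference was small, at a log2 fold change of -0.10 (95% interval -0.28 to 0.07), and did not pass the test (adjusted p = 0.387 from edgeR). In the mutant, *Six6* was at 93.0% of its wildtype level.

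*Six3* (chromosome 17, 85613608 to 85629302) gave fewer reads, 3793 and 3571 from wildtype and 4268 and 2959 from mutant retinas. The mutant libraries were the highest and the lowest of the 4, at 51.4 and 35.8 CPM, with the wildtype at 43.3 and 48.1 CPM between them. The log2 fold change of -0.07 (95% interval -0.41 to 0.27, adjusted p = 0.791 from edgeR) had the widest interval of the 8. *Six3* was at -0.35 without mutant replicate 1 and at 0.17 without mutant replicate 2, both below 1.4-fold. Because the mutant carries Cre under *Six3* sequence, any transcribed *Six3* sequence of that transgene would be counted here as well, which was not tested. The ratio of *Six3* to *Six6* within a library was 0.117 and 0.128 in wildtype and 0.153 and 0.101 in mutant retinas, and the genotypes overlapped.

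*Lhx2* (chromosome 2, 38339281 to 38369733), a LIM homeodomain protein that carries the optic vesicle to the optic cup and sustains progenitors, had 13657 and 13581 wildtype reads and 14058 and 15924 mutant reads. The corresponding levels were 156 and 183 CPM in wildtype and 169 and 192 CPM in mutant retinas, again with the lower value in replicate 1 of both genotypes. Its log2 fold change was 0.09 (95% interval -0.14 to 0.32, adjusted p = 0.572 from edgeR). The ratio of *Rax* to *Lhx2* in the same libraries was 2.27 and 2.51 in wildtype and 2.25 and 2.43 in mutant retinas, and the replicates differed less in this ratio than in either gene.

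*Sox2* and *Sox9* are HMG-box proteins that act at different ends of the progenitor period. *Sox2* (chromosome 3, 34650405 to 34652461) makes progenitors competent for neurogenesis and, with *Pax6*, occupies regulatory sequence of lens and neural genes. It had 19317 and 18953 wildtype reads and 18128 and 18234 mutant reads. At 221 and 256 CPM against 218 and 220 CPM, both mutant libraries lay below both wildtype libraries, although mutant 2 and wildtype 1 nearly met. The log2 fold change was -0.12 (95% interval -0.32 to 0.09, adjusted p = 0.399 from edgeR). It was -0.0048 without wildtype replicate 2 and -0.22 without wildtype replicate 1.

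*Sox9* (chromosome 11, 112782224 to 112787760) marks retinal progenitors and later Müller glia, and outside the neural retina it is made in pigment epithelium, periocular mesenchyme and cartilage. It had 2192 and 2231 wildtype reads and 1668 and 1457 mutant reads. Both mutant libraries were below both wildtype libraries, with levels of 27.6 ± 3.57 CPM in wildtype and 18.8 ± 1.74 CPM in mutant retinas (SD, n = 2). *Sox9* fell by 0.55 on the log2 scale (standard error 0.12, 95% interval -0.83 to -0.27, adjusted p = 0.0126 from edgeR), to 68.4% of wildtype. The fold of 1.46 is close to the limit of 1.4, and the call was lost when wildtype replicate 2 or mutant replicate 2 was left out, at log2 fold changes of -0.41 and -0.46, in a test against the 1.4-fold limit itself, and on the deposited log2 values, at -0.43. The ratio of *Sox2* to *Sox9* within a library was 8.81 and 8.50 in wildtype and 10.9 and 12.5 in mutant retinas, with no overlap.

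*Nr2e1* (chromosome 10, 42561963 to 42583632), also called Tlx, is an orphan nuclear receptor that represses cell cycle inhibitor genes and keeps progenitors from leaving the cell cycle too early. It had wildtype levels of 57.7 and 61.2 CPM and mutant levels of 58.5 and 45.9 CPM. Only mutant 2 lay below the others, and the log2 fold change of -0.19 (95% interval -0.44 to 0.07) did not pass the test (adjusted p = 0.285 from edgeR). The value rested on the mutant libraries: it was -0.37 without mutant replicate 1 and -0.02 without mutant replicate 2, both below 1.4-fold. The ratio of *Pax6* to *Nr2e1*, at 11.0 and 10.8 in wildtype and 11.0 and 14.6 in mutant retinas, was highest in the library with the lowest *Nr2e1*.

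**Figure D2:**
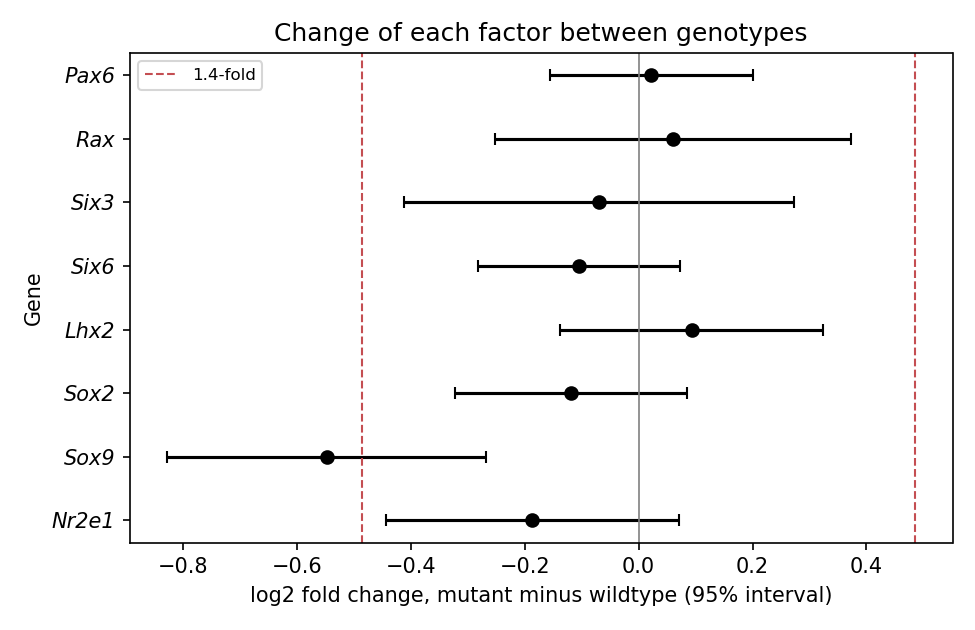
Log2 fold change of each factor, mutant minus wildtype, with its 95% interval from the edgeR fit (horizontal bars) and dashed lines at 1.4-fold in both directions. The intervals of 7 factors stay between the dashed lines, and that of *Sox9* runs from -0.83 to -0.27.

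Per kilobase of exon, the order of the 8 factors was the same in all 4 libraries. In CPM per kilobase over the union of annotated exons, *Sox2* led with 107 and 124 in wildtype against 106 and 107 in mutant retinas. It was followed by *Six6* with 92.0 and 93.6 against 84.0 and 88.6, and by *Rax* with 60.5 and 78.5 against 65.0 and 79.9. *Pax6* came next with 54.1 and 56.5 in wildtype and 55.1 and 57.2 in mutant, then *Lhx2* with 35.5 and 41.7 in wildtype and 38.5 and 43.8 in mutant. The lower group was made up of *Nr2e1* (15.6 and 16.5 against 15.8 and 12.4), *Six3* (7.95 and 8.84 against 9.43 and 6.57) and *Sox9* (6.05 and 7.27 against 4.86 and 4.26). No neighbours in this order overlapped between libraries of the same genotype. The length of *Rax* includes the 1604 bases shared with *Raxos1*, and its place in the order was not tested without them. With the longest coding transcript as the length, which shortens *Pax6* most, the order of the lower group stayed and *Rax* and *Pax6* came before *Sox2* and *Six6*, again in all 4 libraries.

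Several factor genes are crossed, hosted or neighboured by other transcripts, of which 6 were measured. Of these 6, 1 was called lower and 1 higher, where 8.04% and 12.8% of all tested genes were called. The factors beside these 2 were not called. *Sox2ot*, a long noncoding RNA on the same strand that holds *Sox2* in an intron and shares no exon base with it, had 473 and 481 wildtype reads and 1064 and 737 mutant reads. It rose by 0.87 on the log2 scale (standard error 0.20, adjusted p = 0.0131 from edgeR), and both mutant libraries were above both wildtype libraries. Per 100 *Sox2* reads there were 2.45 and 2.54 *Sox2ot* reads in wildtype and 5.87 and 4.04 in mutant retinas, so the RNA was rare beside *Sox2* in either genotype.

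*Pax6os1*, an antisense transcript that runs across the start of *Pax6* without sharing an exon base, had 498 and 523 wildtype reads and 293 and 353 mutant reads. It fell by 0.71 on the log2 scale (standard error 0.20, adjusted p = 0.0317 from edgeR). This call was lost in the test against the 1.4-fold limit itself and on the deposited log2 values, where the change was -0.36. *Paupar*, a noncoding RNA upstream of *Pax6*, and *Elp4*, the neighbour whose introns hold distant *Pax6* enhancers, had log2 fold changes of -0.08 and 0.09 and were not called. *Six3os1*, the long antisense RNA of *Six3*, gave 34644 and 34960 wildtype reads and 38459 and 37926 mutant reads, 901 to 1282 reads per 100 reads of *Six3*. Its log2 fold change was 0.09 (adjusted p = 0.578 from edgeR). *Six3os1* shares 106 exon bases with *Six3* on the opposite strand, 1.95% of the exon bases of *Six3*. A further antisense transcript, *Gm28528*, which was not analysed here, shares 168 exon bases with *Six3*, or 3.1%. *Six6os1* shares 192 with *Six6*, 4.79% of those of *Six6*. *Six6os1*, which despite its name is annotated as a protein-coding gene, had a log2 fold change of 0.10.

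**Figure D3:**
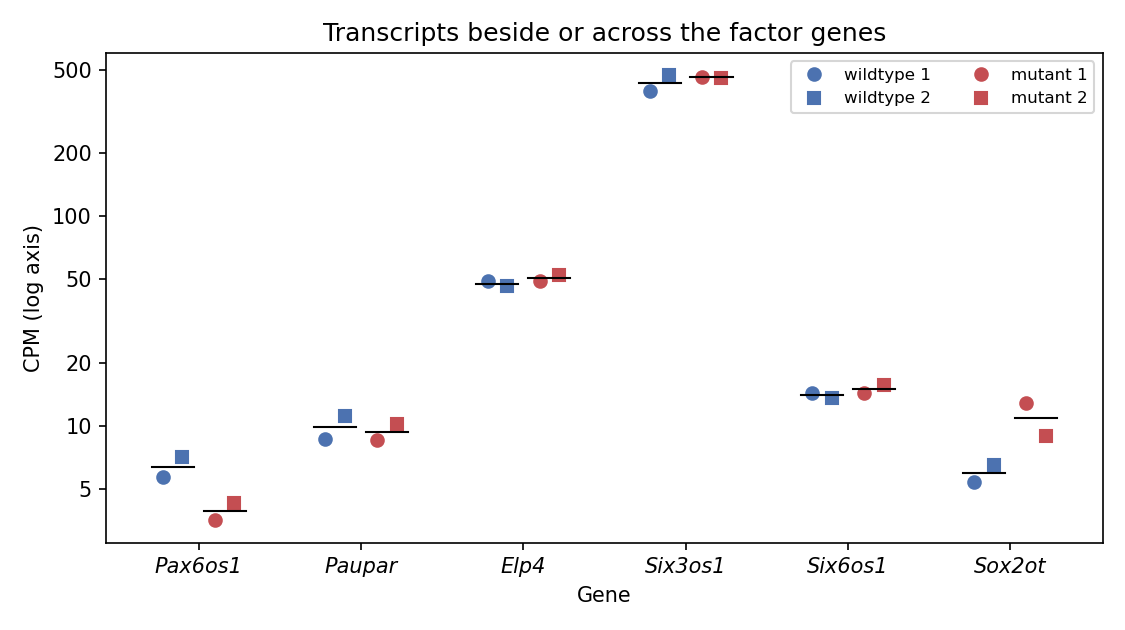
Level in CPM (log axis) of 6 transcripts that cross, hold or neighbour a factor gene, with wildtype libraries in blue, mutant libraries in red, circles and squares for replicates 1 and 2 and black lines for genotype means. *Pax6os1* is lower and *Sox2ot* higher in both mutant libraries than in both wildtype libraries, while *Paupar* and *Six3os1* overlap.

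Close relatives of the 8 factors ranged more widely, from -2.29 to 1.99 on the log2 scale. Of 14 family relatives 13 were tested, of which 2 were lower and 4 higher in the mutant, beside 8.04% and 12.8% of all tested genes, and their median was 0.18 on the log2 scale. *Sox8*, which belongs with *Sox9* to the SoxE group, had 1608 and 1545 wildtype reads and 814 and 838 mutant reads. It fell by 0.98 on the log2 scale (standard error 0.12, adjusted p = 0.000635 from edgeR). *Sox10*, the third SoxE gene and a marker of neural crest and melanocytes, had only 24 and 18 reads in wildtype and rose to 92 and 79 in mutant retinas, a log2 fold change of 1.99 (adjusted p = 0.0194 from edgeR).

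In the SoxB1 group of *Sox2*, *Sox1* rose while *Sox3* did not pass the test. *Sox1*, which is needed for lens fibre cells as well as in neural progenitors, had 528 and 527 wildtype reads and 2080 and 1185 mutant reads, and rose by 1.58 on the log2 scale (standard error 0.24, adjusted p = 0.00175 from edgeR). *Sox3* had 1220 and 1385 wildtype reads and 1441 and 1385 mutant reads, a log2 fold change of 0.07. *Sox1* was higher in mutant 1, the library that also held the most lens RNA: the 15 lens markers summed to 193 and 489 CPM in the wildtype and to 10100 and 4056 CPM in the mutant libraries. The part of lens RNA in the value of *Sox1* was not tested.

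**Figure D4:**
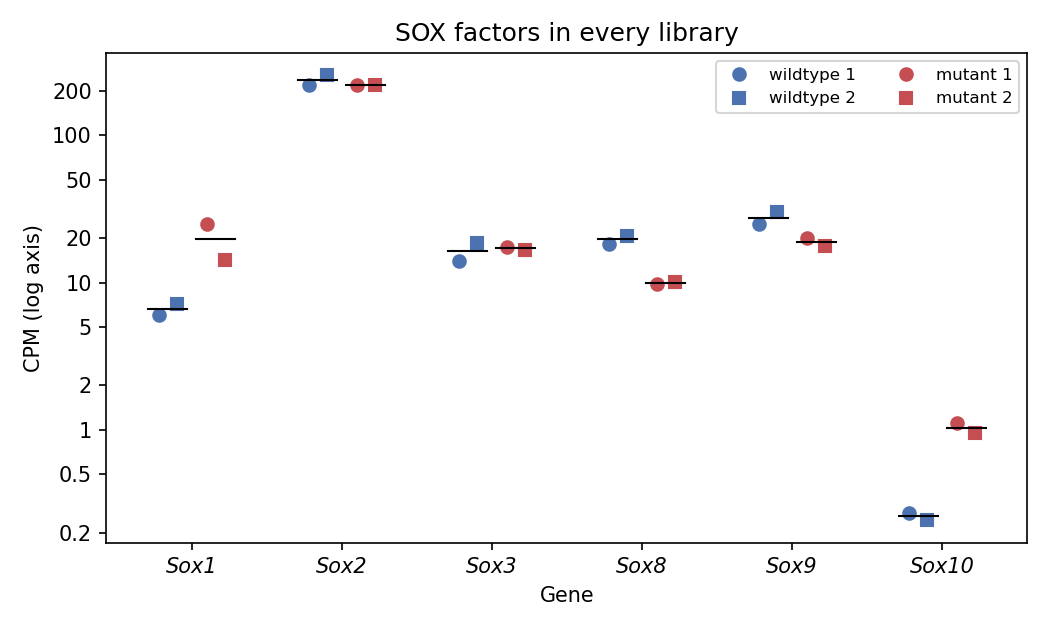
Level in CPM (log axis) of 6 SOX factors of the SoxB1 (*Sox1*, *Sox2*, *Sox3*) and SoxE (*Sox8*, *Sox9*, *Sox10*) groups in the 2 wildtype (blue) and 2 mutant (red) libraries, with circles and squares for replicates 1 and 2 and black lines for genotype means. *Sox8* and *Sox9* are lower and *Sox1* and *Sox10* higher in both mutant libraries, and *Sox3* overlaps.

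The other relatives were mostly low. *Lhx1*, a LIM factor of horizontal cells, had 27 and 26 wildtype reads and 9 and 2 mutant reads and was called lower, at a log2 fold change of -2.29 (adjusted p = 0.0963 from edgeR). *Vsx1*, a paired-type factor of bipolar cells, with 14 and 39 against 96 and 61 reads, and *Six4*, with 1221 and 1044 against 1916 and 1925 reads, were called higher, at log2 fold changes of 1.48 and 0.73. *Six5*, a relative of *Six3*, was not called at 0.18. The genes *Pax2*, *Lhx9*, *Lhx5*, *Six2* and *Alx1* were not called either.

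Beside the 8, 18 other transcription factors of the optic cup were measured. Of these, 1 was lower and 3 were higher, near the shares of all tested genes (8.04% and 12.8%), and their median log2 fold change was 0.18. *Hes5*, an effector of Notch signalling that keeps progenitors undifferentiated, had 16627 and 19456 wildtype reads and 11716 and 10982 mutant reads and fell by 0.72 on the log2 scale (standard error 0.14, adjusted p = 0.00527 from edgeR). *Ikzf1*, the temporal factor of early-born retinal cells, rose by 1.37, *Hmga2*, a chromatin protein of young progenitors, by 0.82, and *Nr2f2*, a nuclear receptor of the dorsal retina, by 0.60. *Ikzf1* is also a gene of blood cells, and 7 of 8 macrophage markers were higher in the mutant (median 1.63 on the log2 scale), with sums of 80.1 and 74.1 CPM in wildtype and 226 and 274 CPM in mutant retinas. The part of these cells in the value of *Ikzf1* was not tested. *Otx2*, with a log2 fold change of -0.03, and *Meis1*, with 0.09, were not called. *Meis2*, a further partner of *Pax6*, was at 0.31 with separate genotypes, below the limit of 1.4-fold.

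**Figure D5:**
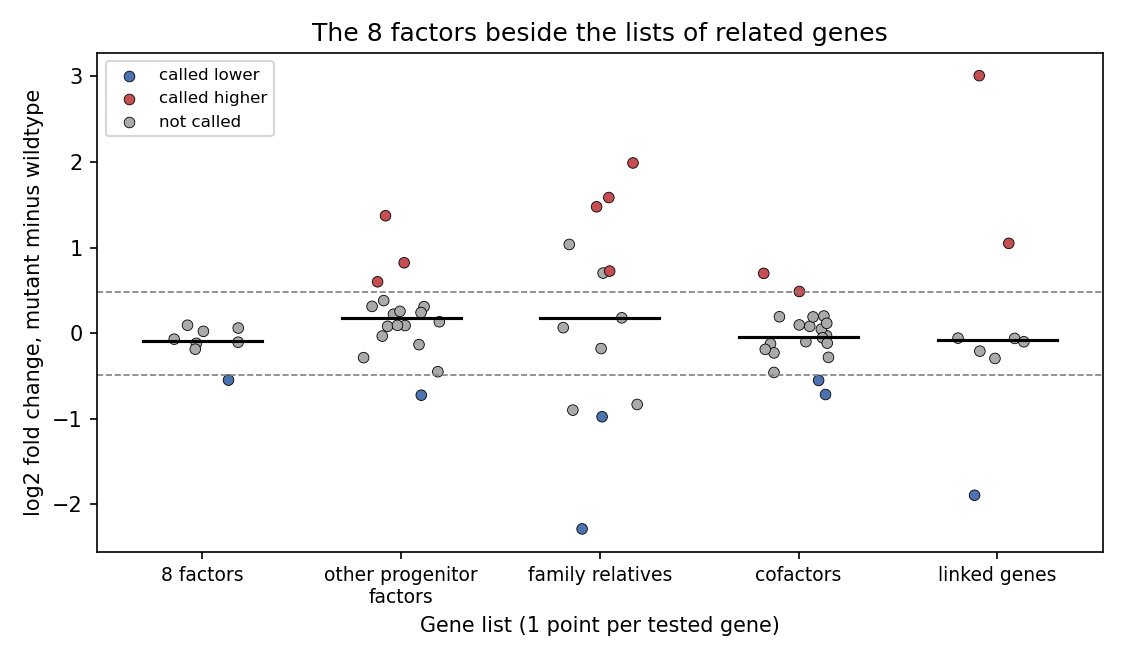
Log2 fold change, mutant minus wildtype, of the 8 factors and of 4 lists of related genes, 1 point per tested gene, with black lines at the medians and dashed lines at 1.4-fold. The 8 factors spread from -0.55 to 0.09, and the family relatives from -2.29 to 1.99.

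Of 20 proteins that the factors work with, 2 were lower and 2 higher, close to the shares of all tested genes (8.04% and 12.8%), and the median log2 fold change was -0.04. *Eya2*, a phosphatase and coactivator of sine oculis proteins, had 11892 and 11466 wildtype reads and 7482 and 7176 mutant reads and fell by 0.72 on the log2 scale (standard error 0.09, adjusted p = 0.000602 from edgeR). Geminin (*Gmnn*), a replication licensing inhibitor that binds *Six3*, fell by 0.55 (adjusted p = 0.00355 from edgeR). *Atn1*, an atrophin corepressor that binds *Nr2e1*, rose by 0.70, and *Eya4* by 0.49.

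The Groucho-type corepressors that sine oculis proteins recruit were not called. *Tle1* was nearest to the limit at a log2 fold change of -0.46 with both mutant libraries below the wildtype ones. *Ldb1*, the obligate partner of LIM homeodomain proteins, was at -0.12 and *Chd7*, a chromatin remodeller that works with *Sox2*, at 0.08.

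Among 8 tested genes known to lie under the control of at least 1 of the 8 factors, 1 was called lower and 2 higher, where 8.04% and 12.8% of all tested genes were called, and the median was -0.08 on the log2 scale. *Cdkn1a*, a cell cycle inhibitor that *Nr2e1* represses and p53 activates, had 247 and 109 wildtype reads and 1311 and 1572 mutant reads and rose by 3.01 on the log2 scale (standard error 0.27, adjusted p = 0.000178 from edgeR). *Cdkn1b*, another inhibitor, repressed by *Six6*, had a log2 fold change of -0.06 and was not called. *Mitf*, which *Pax6* activates in pigment epithelium, rose by 1.05 (adjusted p = 0.000318 from edgeR). *Mitf* is itself a marker of pigment epithelium and ciliary margin, and 8 of 10 tested pigment epithelium markers, *Mitf* included, were higher, with a median of 1.02 on the log2 scale. The part of these cells in the value of *Mitf* was not tested.

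*Wnt8b*, which *Six3* represses at the boundary of the eye field, had 37 and 29 wildtype reads and 13 and 5 mutant reads and was called lower at -1.89 (adjusted p = 0.106 from edgeR). The proneural genes *Atoh7*, *Neurog2* and *Neurod1*, which *Pax6* controls, were not called at -0.29, -0.10 and -0.06. *Notch1*, a target of *Sox2*, was at -0.21.

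Markers of the cells that could hold these factors moved by different amounts between the genotypes. Among all tested genes, 8.04% were called lower and 12.8% higher. Of 6 progenitor markers 3 were called lower, with a median of -0.42 (log2): *Hes5* as above, *Fgf15* at -0.70 and *Dapl1* at -0.56, while *Sfrp2* and *Lin28b* were at -0.03 and 0.02. The 15 cell cycle genes lay between -0.25 and 0.25, with a median of -0.10. All 12 ganglion cell markers were lower, and their summed level was 3216 and 3654 CPM for wildtype against 1363 and 1102 CPM for mutant retinas. *Pax6* and *Six6*, both also made in ganglion cells, were at log2 fold changes of 0.02 and -0.10. The part of the lower ganglion cell RNA in their values was not tested. Of 7 amacrine and horizontal cell markers, of cells that also keep *Pax6*, 4 were lower and 2 higher, with a median of -0.65 and sums of 278 and 302 CPM in wildtype against 249 and 171 CPM in mutant retinas. Of 6 photoreceptor precursor markers 3 were lower, with a median of -0.40. Their sums were 331 and 332 CPM in wildtype against 277 and 267 CPM in mutant retinas.

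Many markers of tissues beside the neural retina were higher in the mutant libraries, where 12.8% of all tested genes were called higher. Of 15 lens markers 14 were higher. Of 10 pigment epithelium markers 8 were higher, with sums of 352 and 261 CPM in wildtype and 650 and 682 CPM in mutant retinas, and *Rpe65* was at 0 or 4 reads in all libraries. Of 10 mesenchyme markers 6 were higher (sums of 270 and 189 against 418 and 355 CPM), as were 4 of 5 tested genes of the cartilage list, although *Acan* and *Matn1*, which define cartilage, had at most 7 reads in any library. All 7 ciliary margin genes were higher, at sums of 276 and 292 against 430 and 511 CPM. Of 7 endothelial markers 5 were higher, while *Kdr*, also made in retinal progenitors, fell by 0.55 on the log2 scale. The sums of the 7, *Kdr* included, differed little, at 262.7 and 268.5 CPM in wildtype and 278.8 and 271.6 CPM in mutant retinas. *Pax6* and *Six3* are made in the lens, and *Sox9* in pigment epithelium and mesenchyme, and *Sox9* was lower where the marker sums of the latter tissues were higher. What these tissues added to the level of any factor was not tested.

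The 4 libraries had 85933945 and 74577660 (wildtype) and 83540824 and 83425985 (mutant) reads on genes. Replicates of a genotype differed by far more than sampling noise and were kept as separate libraries. The study describes the experiment as run in duplicate without saying whether the duplicates were separate pools or extractions, so p-values measure only the spread between the libraries, which may be technical.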

How the data were processed

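RNA of E13.5 retinas was sequenced, with 2 libraries of wildtype and 2 of mutant (*Nrf1 f/f;Six3-Cre*) tissue. The authors aligned paired-end reads to mm10 with Tophat (TopHat2 version 2.7.2 in the submitters' processing notes) and obtained gene counts with HTSeq. The deposited counts are whole reads without normalization. The authors also deposited normalized values on a log2 scale, whose method is not given in the sources used here and which served only as an alternative. The strand setting of the counting and the release of its annotation are not given in the sources used here. The Cuffdiff step of the study needs alignments and was not repeated.

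The 5 summary rows of HTSeq, 74.0% to 75.0% of all entries, were left out of library sizes and tests. Genes were filtered with filterByExpr (minimum count of 10), scaled with TMM and tested by quasi-likelihood (edgeR 4.0.16, R 4.3.3), with Benjamini-Hochberg adjustment over 15762 genes. The biological coefficient of variation was 12.0%. The thresholds, a fold of 1.4 and an adjusted p of 0.2, are those of the study. Standard errors and 95% intervals come from this fit and cover the spread between 2 libraries per genotype. The procedure was tested on simulated data. Positions, exons and overlaps come from GENCODE vM21 (GRCm38), and promoters from RefSeq (GRCm38.p6).

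The 8 factors and the lists of relatives, cofactors, linked genes and markers were chosen with earlier results of these data known, and support nothing by their choice. All 8 factors were named with each value. From each list of related genes the called genes with the largest change in each direction (up to 3) were named, together with genes that give its range or stand closest to a factor, some of which were chosen after their values were seen. The marker lists are given by counts, some also by sums, with few genes named, mainly those of cells known to make a factor. The macrophage and endothelial markers were added after their values were seen. The lists of optic stalk, surface ectoderm and erythroid markers are not described. Alternatives were DESeq2 1.42.0, edgeR's exact test and glmTreat, 2 other scalings, scaling without markers of other tissues, 2 other filters, a stricter adjusted p, the replicate number as a block, limma 3.58.1 on the deposited log2 values and each library left out. Some further genes of the lists are not reported here, and the counts of each list leave them out.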

Additional observations from a re-analysis of the deposited data

How the results depend on the processing

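No factor was called higher under any of the 15 alternatives, and *Sox9* was the only one called lower, under 11 of them. The number of factors called lower was 0 with glmTreat, which tests against the 1.4-fold limit itself, and 0 with limma on the deposited log2 values, where *Sox9* was at -0.43. It was 0 or 1 when each library was left out, with *Sox9* between -0.67 and -0.41. The calls over all genes were 1188 higher and 743 lower with glmTreat and 945 higher and 723 lower with limma on the deposited values. *Pax6os1* lost its call in these last 2 settings, at -0.71 and -0.36, and *Sox2ot* kept its call in all 15.

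Uncalled changes near 0 turned sign with the library left out. *Lhx2* lay between -0.014 and 0.22, *Pax6* between -0.0073 and 0.057, *Rax* between -0.11 and 0.26, *Six3* between -0.35 and 0.17 and *Six3os1* between -0.029 and 0.22, and the cause was not tested. The median of the 8 lay between -0.13 and 0.0032. Leaving out a library leaves 1 of its genotype, which is assumed to vary like the others. Upper-quartile scaling moved the median of all genes to 0.04 and that of the 8 factors to -0.05. The labels do not say whether the numbers of the replicates pair the libraries. The correlation of their deviations over all tested genes was -0.0025, which cannot show that they were unpaired. With the replicate block *Sox9* was at -0.54 and 1 factor was called lower. With 2 libraries per genotype, the 95% interval of *Six3* still spanned 0.752 to 1.21 times the wildtype level.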
